A study of Mus musculus with 288 samples.

Results

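Cytosolic heat shock chaperones were described in single cells sorted from mouse lung. They were 8 genes picked by name, Hspa1a, Hspa1b, Hspa8, Hsp90aa1, Hsp90ab1, Hspb1, Dnaja1 and Dnajb1, out of the 24781 genes of the count table, and all 8 had counts. Of these, 5 are known as stress-inducible (Hspa1a, Hspa1b, Hsp90aa1, Hspb1 and Dnajb1) and 3 as constitutive (Hspa8, Hsp90ab1 and Dnaja1). The donor mice were C57BL/6, 4 months old, with the genotype Scgb1a1-CreER;Rosa26-mTmG. Here the promoter of a club cell gene drives the recombinase CreER, and the reporter marks cells in which CreER acted and their descendants. Every well shares this genotype and the sort for Scgb1a1+ cells of the Epcam+, CD45-, CD31- and CD24low fraction. Sorted single cells filled 286 wells, and 2 further wells were negative controls.

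Chaperones bind proteins that are not, or no longer, folded. HSP70 proteins hold short hydrophobic stretches in a cycle that J-domain proteins of the Dnaj family start, HSP90 proteins act later on a narrower set of clients such as kinases and steroid receptors, and small heat shock proteins such as Hspb1 keep unfolded proteins soluble without using ATP. On heat, oxidants or other stress the factor Hsf1 binds inverted repeats of the letters GAA upstream of the inducible genes, while the constitutive relatives are made in unstressed cells. Lung epithelium meets inhaled oxidants and makes large amounts of secreted protein.

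Wells entered the analysis with more than 10 times the 234 counts of the fuller control well, and 227 of the 286 passed. Of these, 63 wells had at least 1% of their counts from Sftpc, the surfactant gene that marks alveolar type 2 cells (the Sftpc wells), and 74 had at least 1% from Scgb3a1, an airway secretoglobin (the Scgb3a1 wells). The remaining 90 were below both limits (the other wells), and no well passed both. Next to the limits lay wells with 2.07% inside and 0.734% outside for Sftpc, and with 1.01% inside and 0.876% outside for Scgb3a1. Median totals were 3529 counts in Sftpc wells, 6940.5 in Scgb3a1 wells and 5406 in other wells, and ribosomal RNA (Rn45s) took a median of 11.2%, 8.27% and 8.79% of counts, a difference whose part in the chaperone levels was not tested. Club cell markers summed to 59702 CPM (counts of the genes over all counts, in the usual scaled unit) in Sftpc wells, 306150 in Scgb3a1 wells and 382751 in other wells, and alveolar type 2 markers to 212471, 6736 and 12004 CPM in the same order. The 5 immune markers summed to 5.56 CPM over the kept wells (Cd68 and Mrc1, with Ptprc, Cd3e and Cd79a at 0) and the 4 endothelial markers to 15.9 CPM (Cdh5, Kdr and Cldn5, with Pecam1 at 0). No label names the animal behind a cell, so the wells were treated as 1 sample, no p-value was made, and every interval given here is at 95% and covers counting error only. Ratios are of pooled CPM, the summed counts of a gene over the summed totals of a group, and a difference was named higher or lower when it reached 2-fold with at least 20 counts in both groups together. The columns of the table come in 3 successive sets of 96, which no label calls a batch. Set 1 held 6 Sftpc, 38 Scgb3a1 and 38 other wells, set 2 held 17, 31 and 33, and set 3 held 40, 5 and 19, so values within sets stand beside the pooled ones for members whose pooled value depends on them.

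The constitutive members made up most chaperone RNA in these cells. Over all 227 wells the order was Hsp90ab1 at 1471 CPM (1405 to 1539), Hspa8 at 981 CPM (927 to 1037), Hsp90aa1 at 711 CPM (665 to 759) and Hspb1 at 373 CPM (340 to 409). Dnaja1 followed at 136 CPM (116 to 158) and Dnajb1 at 96.9 CPM (80.5 to 116). The stress-inducible HSP70 genes came last, Hspa1b at 37.3 CPM (27.4 to 49.6) and Hspa1a at 34.9 CPM (25.4 to 46.9). Hspa1b and Hspa1a were the only neighbours in this order whose intervals overlapped. Divided by transcript length, as CPM per kb, Hsp90ab1 stayed first at 584, Hspb1, the shortest transcript, moved up to 413 beside Hspa8 at 410, and Hspa1a stayed last at 11.8. The protocol primed cDNA from the poly(A) tail, so these counts need not scale with length. The 8 members together held 4836 counts, 0.384% of all counts in the kept wells, and the 5 inducible members gave 32.6% of them (31.3 to 34.0%). None of the 8 had a count in either control, and the lower control held 41 counts in all.

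**Figure D1:**
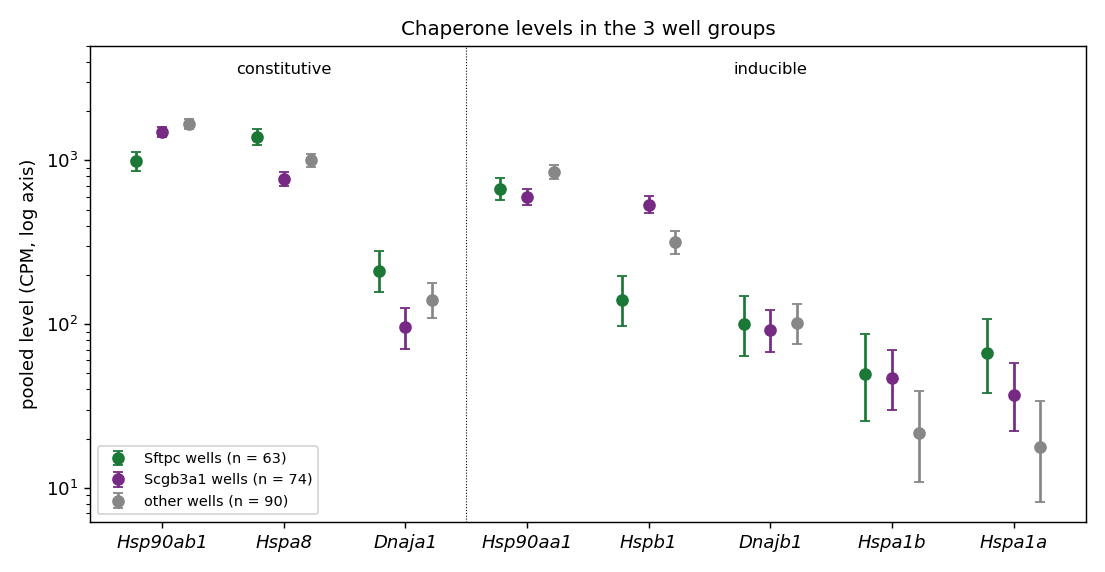
Pooled level of each chaperone (CPM, log axis) in Sftpc wells, Scgb3a1 wells and other wells, with exact Poisson intervals at 95% for counting error. Hspa8 was highest in Sftpc wells at 1392 CPM, while Hsp90ab1, at 989 CPM there, and Hspb1, at 141 CPM, were lowest in them.

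Hspa8 encodes the constitutive HSP70, which also strips clathrin from coated vesicles (chr9:40800984-40810087, plus strand, 9 exons, GENCODE M21 on GRCm38). It was found in nearly every well. Its lowest, median and highest levels per well were 208, 1388 and 3512 CPM in Sftpc wells, 0, 708 and 2446 CPM in Scgb3a1 wells and 0, 786 and 4961 CPM in other wells. The ranges overlapped widely, with the median of the Sftpc wells above both others. Pooled, Hspa8 stood at 1392 CPM in Sftpc wells against 1001 CPM in other wells, a log2 ratio of 0.47 (0.27 to 0.68). The ratio was above 0 within each of the 3 sets (0.59, 0.38 and 0.21). Without the wells with ciliated cell markers, described below, it was 0.63 (0.42 to 0.84). In set 3 such wells held 68 of the 103 Hspa8 counts of other wells. In Scgb3a1 wells Hspa8 stood at 768 CPM, a log2 ratio to other wells of -0.38 (-0.58 to -0.19), but of 0.19 within set 1. Neither pooled ratio reached 2-fold. The variance of Hspa8 counts over that expected from well totals alone, where 1 is counting error, was 1.12 in Sftpc wells, 1.73 in Scgb3a1 wells and 3.22 in other wells. The last 300 bases of the Hspa8 transcript matched 8 other annotated genes at 95% identity or more over at least 100 bases, 7 of them processed pseudogenes, so reads could be split between them. None of these 8 names matched a row of the table used here.

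Hspa1a (chr17:34969190-34972156) and Hspa1b (chr17:34956436-34959238), both on the minus strand with 1 exon, encode the stress-inducible HSP70. Their transcripts align over 2200 bases at 99.1% identity, but the last 770 bases of Hspa1a and the last 603 of Hspa1b fall outside this alignment, and the poly(A)-primed counts come from that end. Most wells held no count of either. Hspa1a was found in 26 wells and Hspa1b in 35, and 8 wells held both, 30.8% of the Hspa1a wells and 22.9% of the Hspa1b wells.

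Upstream stretches of Hspa1a, Hspa1b, Hspb1 and Dnaja1 are shown because they hold an inverted pair of the GAA units that Hsf1 is known to bind. RefSeq windows for GRCm38.p6 were given for 5 of the 8 members, and Hspa8, Hsp90aa1 and Hsp90ab1 had no entry. In the 250 bases before a start, the inverted pair GAANNTTC, which reads the same on both strands, was found for 4 of the 5 genes (Hspa1a, Hspa1b, Hspb1 and Dnaja1, the last a constitutive member) but not for the inducible Dnajb1, against 7.73% of the 27025 genes of the table. The opposite pair TTCNNGAA was found for 0 of 5 against 8.11% of genes, and repeats of 3 such units, in either phase, for 0 of 5 against 0.281% and 0.263%. The letters CCAAT, on either strand, were found for 4 of 5 against 37.5%, and TATAA for 0 of 5 against 25.8%. A match is a description of the letters and no sign of binding. Capitals mark GAANNTTC in the strand of the gene, 5′ to 3′.
Hspa1a, chr17:34972233-34972280, minus strand, match 104 bases before the start: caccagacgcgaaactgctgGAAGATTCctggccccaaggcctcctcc
Hspa1b, chr17:34959315-34959362, minus strand, match 104 bases before the start: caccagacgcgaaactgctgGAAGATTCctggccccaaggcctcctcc
Hspb1, chr5:135887782-135887849, plus strand, matches 117 and 97 bases before the start: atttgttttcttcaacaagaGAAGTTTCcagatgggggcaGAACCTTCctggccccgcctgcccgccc
Dnaja1, chr4:40722324-40722371, plus strand, match 124 bases before 1 of the RefSeq starts: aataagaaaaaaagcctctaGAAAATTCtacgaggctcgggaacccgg
The Hspa1a and Hspa1b stretches are identical. Over the whole 250 bases these 2 genes share 247 (98.8%) and differ by C44T, T47C and T249G, with the Hspa1a base first and positions counted from the 5′ end of the window. Hspb1 holds the pair at 2 places, and Dnaja1 in 1 of its 3 windows, in a stretch that lies inside the gene as GENCODE M21 draws it, with a start further upstream.

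The inducible HSP70 genes were rare in every group and more frequent per count in Sftpc and Scgb3a1 wells than in other wells. Hspa1a had 16 counts in Sftpc wells, 19 in Scgb3a1 wells and 9 in other wells, or 66.5, 37.0 and 17.8 CPM. A count of it was present in 14.3% of Sftpc wells, 16.2% of Scgb3a1 wells and 5.56% of other wells, and in 15.9%, 8.11% and 2.33% once wells were thinned to 3151 counts each. Thinning kept 44 of the 63 Sftpc wells, all 74 Scgb3a1 wells and 86 of the 90 other wells. All shares at equal depth thus leave out the Sftpc wells of lowest totals. Hspa1b had 12, 24 and 11 counts, or 49.9, 46.8 and 21.8 CPM, in Sftpc, Scgb3a1 and other wells. The median was 0 in all groups for both genes, and the ranges overlapped. The log2 ratio of Sftpc wells to other wells was 1.90 (0.64 to 3.26) for Hspa1a and 1.20 (-0.11 to 2.52) for Hspa1b. For Scgb3a1 wells over other wells it was 1.06 (-0.16 to 2.38) and 1.10 (0.02 to 2.28). All 4 ratios passed 2-fold, as 17.4% of 3854 genes did upward in Sftpc wells and 8.13% of 4536 in Scgb3a1 wells. Of the 4 intervals those of Hspa1b in Sftpc wells and Hspa1a in Scgb3a1 wells included 0. Single wells and sets carried much of this. A single Sftpc well, cell 210, gave 4 counts of each gene, and without it the log2 ratio of the 2 genes summed was 1.09 in place of 1.56 (0.68 to 2.46). Without set 3, Hspa1b in Sftpc wells was at -0.94 (-6.42 to 1.95) relative to other wells, with 9 counts in both groups together. Without set 2, the sum in Scgb3a1 wells was at 0.12 in place of 1.08 (0.29 to 1.93).

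The J-domain partners differed from each other. Dnaja1 (chr4:40722150-40737149, plus strand, 9 exons) encodes a type of HSP40 that works with Hspa8. Its lowest, median and highest levels were 0, 145 and 1257 CPM in Sftpc wells, 0, 0 and 621 CPM in Scgb3a1 wells and 0, 0 and 1240 CPM in other wells. It was present in 50.8% of Sftpc, 48.6% of Scgb3a1 and 48.9% of other wells, shares that became 54.5%, 23.0% and 32.6% at equal depth. Pooled, it stood at 212 CPM in Sftpc wells against 141 CPM in other wells, a log2 ratio of 0.59 (0.04 to 1.13). Within set 3 the ratio was -0.38 (-1.22 to 0.48). With totals scaled by TMM factors the pooled ratio was 0.39 (-0.16 to 0.93), an interval that included 0. In Scgb3a1 wells Dnaja1 stood at 95.5 CPM, a log2 ratio to other wells of -0.56 (-1.11 to -0.01). Dnajb1 (chr8:83608193-83612653, plus strand, 3 exons) is the stress-inducible HSP40. Its level was 99.7 CPM in Sftpc wells, 91.6 CPM in Scgb3a1 wells and 101 CPM in other wells, with log2 ratios to other wells of -0.02 (-0.78 to 0.71) and -0.14 (-0.74 to 0.46). Dnajb1 was present in 19.2% of the wells with Hspa1a and in 34.3% of those with Hspa1b, beside 32.2% of all kept wells, over 5 and 12 shared wells.

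Hsp90ab1 encodes the constitutive HSP90 beta (chr17:45567775-45573271, minus strand, 11 exons). Its lowest, median and highest levels were 0, 850 and 2553 CPM in Sftpc wells, 311, 1552 and 3521 CPM in Scgb3a1 wells and 123, 1602 and 4231 CPM in other wells. Sftpc wells lay lowest, with overlap between all 3 groups. The log2 ratio of Sftpc wells (989 CPM) to other wells (1670 CPM) was -0.76 (-0.97 to -0.55), below 2-fold, and it was -0.95, -0.61 and -1.005 within the 3 sets. In Scgb3a1 wells, at 1500 CPM, the log2 ratio to other wells was -0.15 (-0.30 to -0.01), and 0.02 within set 3.

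Hspa8 and Hsp90ab1 therefore stood in opposite order in the groups. There were 1.41 counts of Hspa8 for each count of Hsp90ab1 in Sftpc wells (1.19 to 1.67), 0.512 in Scgb3a1 wells (0.452 to 0.578) and 0.600 in other wells (0.536 to 0.670). This ratio needs no total count. Within the 3 sets it was 1.29, 1.46 and 1.40 in Sftpc wells, 0.529, 0.513 and 0.385 in Scgb3a1 wells and 0.442, 0.739 and 0.606 in other wells. The values of Sftpc wells did not overlap those of Scgb3a1 or other wells. Wells with ciliated cell markers, described below, held 1.15 counts of Hspa8 per count of Hsp90ab1 (0.843 to 1.56), with Hspa8 higher in 5 of 8. The other wells without such markers held 0.546 (0.484 to 0.616), and 0.427, 0.730 and 0.315 within sets 1, 2 and 3. Hspa8 exceeded Hsp90ab1 in 40 of 63 Sftpc wells (63.5%), in 10 of 74 Scgb3a1 wells (13.5%) and in 16 of 90 other wells (17.8%). At equal depth these shares were 65.9%, 17.6% and 25.6%. The 2 log2 ratios of Sftpc wells to other wells differed by 1.23 (0.94 to 1.52).

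**Figure D2:**
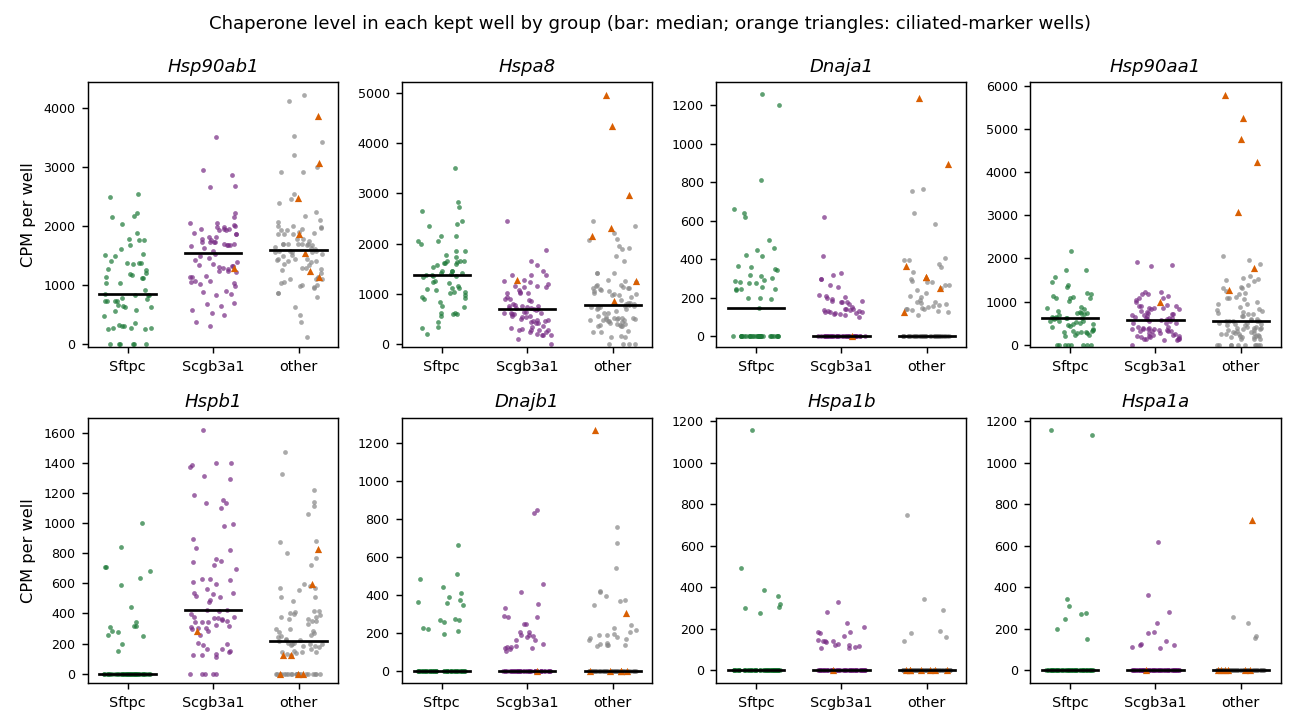
Level of each chaperone in every kept well (CPM, linear axes that differ between panels), with Sftpc wells on the left, Scgb3a1 wells in the middle and other wells on the right. Bars mark medians, and orange triangles mark the 8 wells with ciliated cell markers, 4 of which hold the highest Hsp90aa1 counts (14 to 34).

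Hsp90aa1 encodes the stress-inducible HSP90 alpha (chr12:110690605-110702728, minus strand, 11 exons). Its lowest, median and highest levels were 0, 614 and 2180 CPM in Sftpc wells, 0, 570 and 1919 CPM in Scgb3a1 wells and 0, 554 and 5788 CPM in other wells. The medians lay close together, and the other wells had a long upper tail. The same variance measure was 1.26 in Sftpc wells, 1.85 in Scgb3a1 wells and 6.89 in other wells. Pooled, Hsp90aa1 stood at 669 CPM in Sftpc wells and 596 CPM in Scgb3a1 wells against 847 CPM in other wells. The log2 ratios to other wells were -0.34 (-0.61 to -0.08) and -0.51 (-0.72 to -0.29). Set 3 carried most of both: within sets 1, 2 and 3 they were -0.09, -0.11 and -1.22 for Sftpc wells and -0.33, -0.06 and -1.18 for Scgb3a1 wells, and Hsp90aa1 in the other wells of set 3 stood at 1680 CPM.

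The upper end of that tail lay in wells with ciliated cell markers. Summed counts of Foxj1, Tppp3, Ccdc153 and Dynlrb2 were 11 to 43 in 8 wells and at most 4 in any other kept well, a limit of 10 that was chosen after the values were seen. Of the 8 wells, 7 were other wells and 1 was a Scgb3a1 well, and 5 lay in set 3. Median totals were 6008.5 counts in the 8 wells and 5397 in the 83 remaining other wells, club markers summed to 194166 against 398459 CPM, and Rn45s took a median of 12.0% against 8.65% of counts. The gate genes Epcam and Cd24a summed to 1456 against 470 CPM, although the sort took cells low in CD24. The part of these differences in what follows was not tested. Hsp90aa1 had 10, 7, 10, 34, 31, 6, 29 and 14 counts in the 8 wells, or 1002 to 5788 CPM with a median of 3657. The 8 wells were not alike in their markers. In the same order, the club gene Scgb1a1 had 15, 1286, 2651, 1360, 1172, 24, 14 and 6 counts. Foxj1 had 8, 4, 3, 16, 8, 0, 7 and 0, and Tppp3 had 13, 13, 4, 0, 7, 22, 23 and 8. The pooled level of Hsp90aa1 was 3208 CPM in the 8 wells against 628 CPM in the 83 remaining other wells, 5.11-fold higher (4.15 to 6.27), and 4.75-fold higher without the well of most Hsp90aa1. Without set 3, where 3 of the 8 wells remained, the log2 ratio was 1.20 in place of 2.35. Hsp90ab1, at 1866 against 1646 CPM, was 1.13-fold (0.891 to 1.42) the level of the remaining other wells. Hsp90aa1 exceeded Hsp90ab1 in 6 of the 8 wells and in 6 of the 83.

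Other members were also high in the wells with ciliated markers. Hspa8 stood at 2139 CPM there against 899 CPM in the remaining other wells, 2.38-fold (1.88 to 2.98), and Dnaja1 at 319 against 122 CPM, 2.62-fold (1.35 to 4.76). Of all 2521 genes with at least 20 counts in these 2 groups, 22.6% were at least 2-fold higher and 10% at least 2-fold lower. The small heat shock gene Hspb1 stood at 182 against 329 CPM, a ratio of 0.553 (0.235 to 1.12). Dnajb1 had 8 counts in the 8 wells, 7 of them in cell 247. That well held 83 counts of the 8 members among 5522, the most of any kept well, with 29 of Hsp90aa1, 24 of Hspa8, 17 of Hsp90ab1, 4 of Hspa1a and 2 of Dnaja1. The summed ciliated markers stood at 104 CPM in Sftpc wells, 95.5 in Scgb3a1 wells and 354 in other wells. Without the 8 wells, the log2 ratio of Hsp90aa1 to other wells was 0.09 for Sftpc wells and -0.09 for Scgb3a1 wells. That of Dnaja1 for Sftpc wells was 0.80 (0.23 to 1.37). The 5 wells with ciliated markers in set 3 held 2, 2, 3, 2 and 3 of the 23 Dnaja1 counts of other wells there.

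Hspb1 encodes the small heat shock protein, which also associates with actin and keratin filaments (chr5:135887919-135889563, plus strand, 3 exons). Its lowest, median and highest levels were 0, 0 and 999 CPM in Sftpc wells, 0, 420 and 1617 CPM in Scgb3a1 wells and 0, 221 and 1472 CPM in other wells. It was present in 28.6% of Sftpc wells, 93.2% of Scgb3a1 wells and 72.2% of other wells, and in 27.3%, 75.7% and 57.0% at equal depth. Most Sftpc wells held none, while nearly all Scgb3a1 wells held some. Pooled, it stood at 141 CPM in Sftpc wells and 538 CPM in Scgb3a1 wells against 317 CPM in other wells. The log2 ratio was -1.16 (-1.74 to -0.62) for Sftpc wells, a ratio of 0.446, and 0.76 (0.48 to 1.05) for Scgb3a1 wells, which is 1.70-fold and below the 2-fold limit. Within sets 1 and 2 the ratio for Sftpc wells was -0.60 and -0.59, and without set 3 it was -0.64, so the 2-fold difference was reached through set 3. For Scgb3a1 wells it was 1.39-fold, 2.03-fold and 1.24-fold within sets 1, 2 and 3. A processed pseudogene, Hsp25-ps1, shares 167 bases of the end of Hspb1 at 98.2% identity, and its name matched no row of the table used here.

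**Figure D3:**
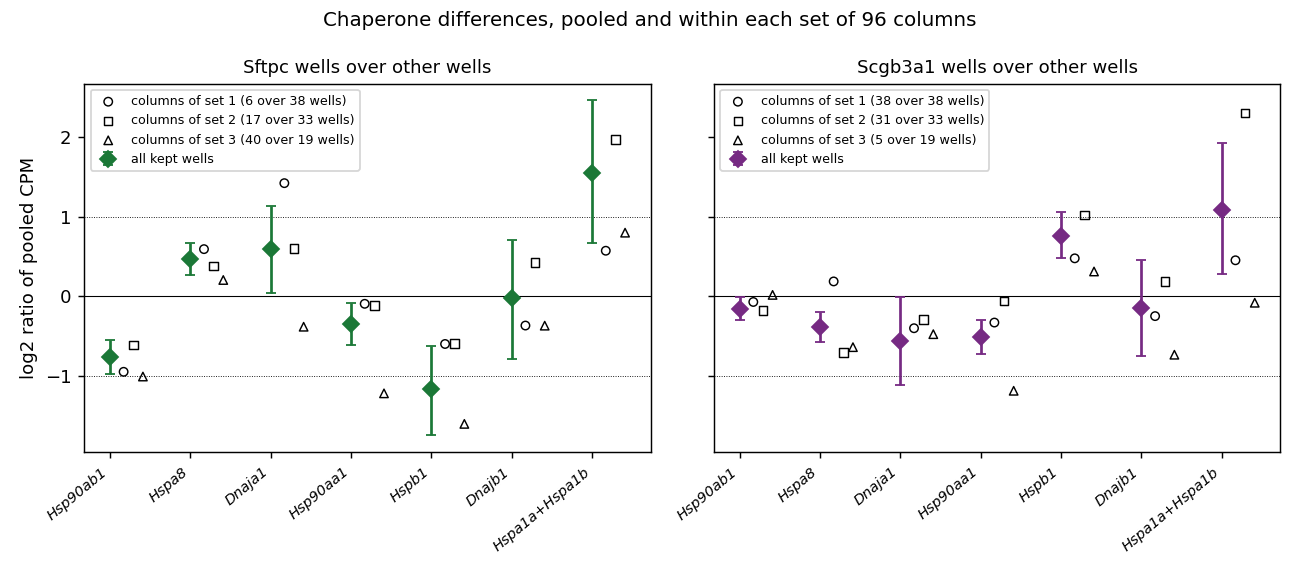
Log2 ratio of pooled CPM to other wells for Sftpc wells (left) and Scgb3a1 wells (right), over all kept wells with intervals for counting error (diamonds) and within each set of 96 columns (open symbols). Dotted lines mark 2-fold, and Hspa1a and Hspa1b are summed. Hsp90ab1 lies below 0 and Hspa8 above 0 in Sftpc wells within all 3 sets.

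Between Sftpc wells and other wells, 2 of the 8 members were at least 2-fold higher (Hspa1a and Hspa1b), 1 was at least 2-fold lower (Hspb1) and 5 were neither. Over all 3854 genes with at least 20 counts, 17.4% were higher and 9.68% lower by the same rule. The median log2 ratio of the members was 0.23, beside 0.18 for all genes. Scaling by TMM factors moved every log2 ratio of Sftpc wells to other wells by -0.20 and put the median of all genes at -0.02. Between Scgb3a1 wells and other wells, 2 members were higher (Hspa1a and Hspa1b), 0 lower and 6 neither, where 8.13% of 4536 genes were higher and 9.24% lower. Their median log2 ratio was -0.15, beside -0.02 for all genes. Both comparisons share the other wells. Set directly against Scgb3a1 wells, Sftpc wells held less Hspb1, with a ratio of 0.263 (0.178 to 0.376), and more Dnaja1, 2.22-fold (1.47 to 3.35), where 19.7% of 3834 genes were higher and 13.2% lower. Within sets 1, 2 and 3 the ratio was 0.475, 0.326 and 0.266 for Hspb1, and 3.53, 1.86 and 1.07 for Dnaja1, whose 2-fold difference was thus absent from sets 2 and 3. Hspa8 was 1.81-fold (1.56 to 2.10) in that comparison and Hsp90ab1 stood at 0.659 (0.567 to 0.763).

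Summed, the inducible members stood at 1026 CPM in Sftpc wells and 1309 CPM in Scgb3a1 wells against 1304 CPM in other wells. The log2 ratios to other wells were -0.35 (-0.56 to -0.13) and 0.01 (-0.15 to 0.16). They were -0.08 and 0.27 without the wells with ciliated markers. The constitutive members stood at 2593 CPM in Sftpc wells and 2364 CPM in Scgb3a1 wells against 2812 CPM in other wells, log2 ratios of -0.12 (-0.26 to 0.02) and -0.25 (-0.36 to -0.14). The pooled sums stayed within 2-fold, and the inducible sum of Sftpc wells was at -1.04 relative to other wells within set 3. Of the 19 other wells of set 3, 5 had ciliated markers, and the 14 without them held 29 of the 143 Hsp90aa1 counts. No ratio of Sftpc or Scgb3a1 wells to other wells within set 3 was made without these 5 wells. The 14 wells held 0.261 counts of Hsp90aa1 for each count of Hsp90ab1, beside 0.841 in all 19. In the Sftpc wells of set 3 this value was 0.727. In Sftpc wells single members of each class lay on both sides of 0, while in Scgb3a1 wells the 3 constitutive members all lay below it. Inducible members gave 28.4% of chaperone counts in Sftpc wells (25.4 to 31.5%), 35.6% in Scgb3a1 wells (33.5 to 37.9%), 45.9% in wells with ciliated markers (40.6 to 51.2%) and 28.9% in the remaining other wells (26.8 to 31.1%). Hsp90aa1 made up 18.5%, 16.2%, 40.2% and 16.7% of chaperone counts in these 4 groups, and Hspb1 3.90%, 14.6%, 2.28% and 8.77%.

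**Figure D4:**
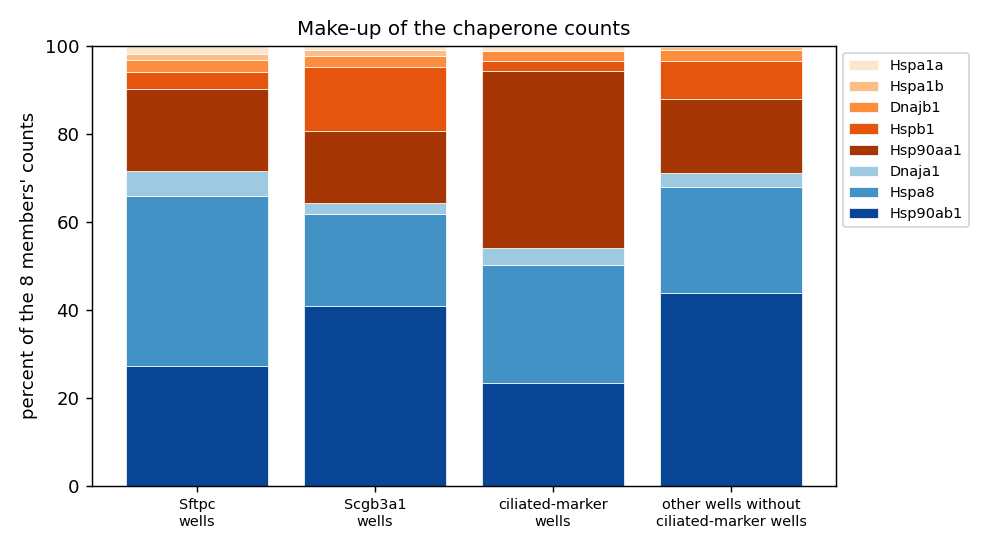
Share of each member in the summed counts of the 8 chaperones (percent), from left to right in Sftpc wells, Scgb3a1 wells, the 8 wells with ciliated markers (1 of them also a Scgb3a1 well) and the remaining other wells. Blue shades are constitutive and orange shades inducible members; Hsp90aa1 takes 40.2% in the wells with ciliated markers, and Hspa8 takes 38.5% in Sftpc wells.

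Correlations between the members from well to well were low. In counts this sparse, counting error by itself lowers a correlation, so low values do not show that the members vary independently. Over the 28 pairs, Spearman's rho of CPM across the 227 wells ran from -0.13 to 0.25 with a median of 0.04, as a description of sparse counts that share each well's total. The highest values were 0.25 for Hspb1 with Hsp90ab1 and 0.23 for Dnaja1 with Hspa8, which were 0.12 and 0.25 in wells thinned to equal depth. Within Sftpc, Scgb3a1 and other wells they were 0.15, -0.04 and 0.27 for the first pair and -0.18, 0.29 and 0.29 for the second. Hspb1 with Hsp90aa1, at 0.17 over all wells, was at -0.09, 0.35 and 0.30 within them. Hspa1a with Hspa1b, the near-identical genes, reached 0.14. Among genes present in at least 20% of wells, the 5 most like the summed inducible members were Lgals3 (rho 0.36), S100a11 (0.33), Krt8 (0.31), Anxa2 (0.30) and Plec (0.30). With wells thinned to equal depth these values were 0.23, 0.22, 0.28, 0.18 and 0.17. For the constitutive members the 5 genes were Gm15501 (0.27), Dcxr (0.26), Msn (0.24), Atp6v1a (0.24) and 2410006H16Rik (0.23), out of 2292 candidates over 227 wells. At equal depth these were 0.13, 0.21, 0.17, 0.16 and 0.21.

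Few partner genes of the same machinery were 2-fold apart between the groups. The shares over all genes were 17.4% higher and 9.68% lower for Sftpc wells and 8.13% and 9.24% for Scgb3a1 wells, with median log2 ratios of 0.18 and -0.02. Of 25 partners of HSP70 and small heat shock proteins, 16 had enough counts for Sftpc wells against other wells, and 0 were higher and 1 lower, the HSP70 nucleotide exchange factor Hspbp1 with 3 counts in Sftpc wells against 24 in other wells, a ratio of 0.262 (0.0506 to 0.864). The next by size were Dnajc7, a J-domain protein with a ratio of 0.504 (0.169 to 1.26), and the J-domain protein Dnaja4 at 1.97 (0.906 to 4.25). For Scgb3a1 wells 20 were measured, 0 higher and 3 lower, namely the small heat shock gene Cryab at 0.246 (0.0823 to 0.618), Dnajc7 at 0.315 (0.123 to 0.721) and Hspa4l, an HSP110 relative, at 0.492 (0.182 to 1.22). The medians of this list were -0.02 in Sftpc wells and 0.06 in Scgb3a1 wells. Of 14 HSP90 partners, 10 and 12 were measured in these comparisons and none was called in either. Their median log2 ratios were -0.30 in Sftpc wells and -0.38 in Scgb3a1 wells, and the farthest genes were Ahsa1, the HSP90 ATPase activator, at -0.87, Stip1 at -0.80 and Ptges3 at -0.62 in Sftpc wells and Aarsd1 at -0.92, Ahsa1 at -0.79 and Unc45a at 0.77 in Scgb3a1 wells.

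The 8 subunits of the chaperonin TRiC, which folds actin and tubulin, were all measured and 0 were called in either comparison. All 8 had log2 ratios below 0 in Sftpc wells, with a median of -0.39 beside 0.18 for all genes, and 5 were below 0 in Scgb3a1 wells, with a median of -0.02 as for all genes. Cct8, Cct3 and Cct2 lay farthest in Sftpc wells, at log2 ratios of -0.97, -0.70 and -0.60 to other wells, and Cct8, Cct3 and Cct6a in Scgb3a1 wells, at 0.53, -0.49 and 0.48. Of 15 chaperones of mitochondrion and endoplasmic reticulum, 1 was higher in Sftpc wells, the J-domain protein Dnajb9 at 3.09-fold (1.60 to 6.09), and 1 lower, the mitochondrial chaperonin Hspd1 at a ratio of 0.456 (0.242 to 0.806). Pdia4 came next by size at -0.79. In Scgb3a1 wells 0 were called, with Dnajb11 at 0.45, Pdia4 at -0.42 and Trap1 at -0.41. The medians of these 15 were -0.21 and 0.07. Immediate early genes, which are also known to rise when tissue is dissociated, were set beside the inducible chaperones. Of 17 measured, 4 were higher and 1 lower in Sftpc wells (Klf4 at 4.74-fold, Jund at 2.98-fold and Fos at 2.21-fold lay farthest), and 1 was higher and 1 lower in Scgb3a1 wells (Klf4 at 7.40-fold and Socs3 at a log2 ratio of -1.38, followed by Egr1 at -0.83). Their median log2 ratio was 0.70 in Sftpc wells, beside 0.18 for all genes, and 0.01 in Scgb3a1 wells, beside -0.02. The part of dissociation in the chaperone levels was not tested.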

How the data were processed

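Counts per gene symbol and well, whole numbers and not normalized, were deposited by the authors. STAR, without a version, and mm10 are named in the submitters' processing notes. Which annotation and counter were used, and whether strand was used or molecular barcodes were collapsed, is not given in these sources. If barcodes were not collapsed, intervals are too narrow. Per the labels' protocols, RNA was fragmented by heat, primed from poly(A) and amplified.

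Pooled CPM had exact Poisson intervals, ratios exact conditional binomial intervals and shares of wells Clopper-Pearson intervals (Python 3.11.15, numpy 2.4.6, pandas 2.3.3, scipy 1.17.1). Kept wells held 2384 to 15088 counts. Thinning left out 23 wells. TMM factors came from edgeR 4.0.16 on pooled profiles, and transcript ends were compared with BLAST+ 2.17.0. The ratio script was tested on simulated data. Members, lists and groups were chosen with earlier results of these data known. Named genes were every member, the 3 measured genes of each partner list with the largest absolute log2 ratio, and the 5 genes most correlated with each sum. Single wells were singled out after their values were seen. Alternatives covered denominator, weighting, depth, limits, sets and membership.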

Additional observations from a re-analysis of the deposited data

Results flagged for a closer look

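Chaperone counts were found in 11 sorted wells that held no more counts than the higher control and entered no comparison. Summed over these wells, the 8 members had 14 counts, or 12292 CPM, with 9 counts of Hsp90ab1, 3 of Hsp90aa1, 1 of Hspa8 and 1 of Hspa1b. The 2 control wells had 0 counts of the 8 members, and a count of 0 over both allows up to 10909 CPM. What marked this value is that it lay above that limit of 3 counts. It does not exceed the exact Poisson upper bound for 0 counts in the controls, 13414 CPM, and its own interval for counting error, 6720 to 20623 CPM, includes both limits.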

How the results depend on the processing

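No paired analysis was possible because no label ties a cell to an animal or pairs wells, and no result came from a test across samples. All values here are log2 ratios unless counts are named. No well passed both marker limits, so counting such wells with either group changed nothing. The Sftpc-to-other ratio of the inducible sum (-0.35) was -0.57 without 5 abundant genes in the total, -0.073 within set 2, -1.04 within set 3 and -0.077 without the wells with ciliated markers. That of the constitutive sum (-0.12) was -0.34 without the 5 genes, -0.42 within set 3 and -0.32 with TMM factors. The Scgb3a1-to-other ratio of the inducible sum (0.01) was -0.28 without set 2, 0.49 within it, 0.22 without set 3, -0.80 within it, 0.27 without the wells with ciliated markers and 0.64 without Hsp90aa1. That of the constitutive sum (-0.25) was -0.41 without set 1, 0.00015 within it and -0.37 within set 2. The ratio of inducible to constitutive counts (-1.05) was -0.82 with Dnaja1 counted as inducible, -2.25 without Hsp90aa1, -1.15 without set 1 and -0.92 without set 2.

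The count of members at least 2-fold apart with at least 20 counts was 4 higher and 1 lower over both comparisons (5 in all). It was 1 in thinned wells, 3 at marker limits of 5%, 1 within set 1 and 2 without set 2. It was 1 within set 2, 2 without set 3, 3 without the well of most counts and 3 with wells above 1000 counts. Within set 3 the members that met this rule were all lower. They were Hspb1 (-1.60), Hsp90aa1 (-1.22) and Hsp90ab1 (-1.005) in Sftpc wells and Hsp90aa1 (-1.18) in Scgb3a1 wells. Members left with fewer counts dropped out at any ratio. Thinned, Hspa1a and Hspa1b in Sftpc wells stood at 3.55 and 1.81 with 14 counts each. Within set 2, Hspa1a and Hspa1b in Scgb3a1 wells stood at 1.93 and 2.72 with 16 and 17 counts. Others fell below 2-fold, such as thinned Hspa1b in Scgb3a1 wells (0.48) and Hspb1 in Sftpc wells within set 2 (-0.59). Hspa1b in Sftpc wells was at -0.94 (-6.42 to 1.95) without set 3, and Hspa1a and Hspa1b summed in Scgb3a1 wells at -0.079 (-3.38 to 2.31) within set 3. Hspb1, Hspa8 and Hsp90ab1 kept their direction in Sftpc wells under all 15 alternatives, over ranges of -1.77 to -0.59, 0.21 to 0.63 and -1.005 to -0.61. The Hspa8 and Hsp90ab1 difference (1.23) was 1.54 within set 1. Hsp90aa1 in wells with ciliated markers (2.35) was 2.85 without set 1 and 1.20 without set 3. Of 238 single-member values under these alternatives, 211 lay within the counting interval of the value given, and 15 had the opposite sign, most of them of Dnajb1, whose values lay near 0. Dnajb1 ran from -0.62 to 0.43 in Sftpc wells and kept its sign in 8 of 15 alternatives, and from -0.73 to 0.19 in Scgb3a1 wells, in 12 of 15. Hspa1b gave no ratio within set 1 for Sftpc wells and within set 3 for Scgb3a1 wells, where they held 0 counts. At the 5% marker limit Hspb1 in Scgb3a1 wells was at 0.25 in place of 0.76. The cause of these shifts was not tested. The rare members limit precision, with 44 counts of Hspa1a and 47 of Hspa1b in all.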

Other observations

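The 59 wells removed for low totals held a median of 1035 counts and their chaperones followed nearly the same order as in kept wells. Pooled, Hsp90ab1 stood at 1808 CPM (1486 to 2179), Hspa8 at 1545 CPM (1248 to 1891) and Hsp90aa1 at 1545 CPM (1248 to 1891) there. Of the 94 counts of Hsp90aa1 in these wells, 28 came from 1 well. Hspb1 stood at 164 CPM (78.8 to 302), and Sftpc in the same wells at 73022 CPM. Hspa1a had 1 count and Hspa1b 6, of which 4 lay in 1 well. The ribosomal RNA gene Rn45s took a median of 22.6% of their counts against 8.90% in kept wells.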
